A study of Mus musculus with 6 samples.

Results

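The extracellular matrix of the lung holds its cells in place and gives the tissue its strength and recoil. Beside the collagens it consists of glycoproteins, proteoglycans and the enzymes that crosslink the fibres. The genes described here are 50 such genes, taken by symbol, of which 47 were measured among the 22180 genes of the table; Efemp2, Spp1 and Plod3 were not analysed here. Where a gene had more than 1 probe set, the group of probes that reports 1 transcript, the brightest on average over the 6 arrays stood for it. By the known role of their products the 47 genes fell into 10 of elastic fibres, 11 of adhesive and matricellular proteins, 11 of proteoglycans and hyaluronan synthesis, 9 of basement membranes and 6 of crosslinking enzymes.

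RNA came from primary lung fibroblasts of wild-type male C57BL/6 mice aged 8 weeks, enriched from digested lung and passaged at most 3 times. Cells were split over wells and kept for 24 h with vehicle or with purmorphamine at 5 µM (5um in the labels). This compound switches on Smoothened, the protein through which Hedgehog signals act on the Gli transcription factors. Each of the 2 groups had 3 wells and 3 Affymetrix arrays. Neither the number of mice nor the purity of the cultures is given in the sources used here, so p-values cover only well-to-well spread, possibly technical.

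Elastic fibres let the lung recoil after each breath. They form when elastin is laid on a scaffold of fibrillin microfibrils with the help of fibulins and is then crosslinked by lysyl oxidases. Small leucine-rich proteoglycans bind collagen fibrils and set their spacing, while versican and hyaluronan make a loose, water-rich matrix. Basement membranes are sheets of laminin, nidogen, perlecan and collagen IV under epithelium and endothelium and around muscle. Matricellular proteins such as thrombospondins, tenascin C and periostin signal to cells more than they bear load, and fibroblasts are a main source of most of these products.

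The medians of the 6 arrays ran from 6.34 to 6.39 log2 units, and arrays have no read depth. Differences of the Hedgehog targets Gli1, Ptch1 and Hhip were -0.12, 0.17 and 0.060, and none of these genes passed. Gli1 and Hhip were dim, at the 34.6 and 21.4 percentiles of mean signal over all genes, where changes are compressed. Ptch1 lay at the 66.7 percentile. Markers of several cell types moved between the groups. The mean log2 level over 12 fibroblast markers was 10.20 to 10.26 on the vehicle arrays and 10.47 to 10.49 on the purmorphamine arrays. Over 15 macrophage and leukocyte markers it was 11.73 to 11.74 and 11.49 to 11.54. Over 8 endothelial markers it was 8.32 to 8.35 and 8.54 to 8.59. The macrophage and leukocyte markers Ptprc, Cd68 and Lyz2 were bright, at the 97.1, 99.8 and 99.96 percentiles of mean signal. By these levels the cultures held transcripts of markers of more than 1 cell type. In whole cultures fewer cells of a type and less RNA per cell cannot be told apart.

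Purmorphamine raised 10 of the 47 matrix genes and lowered 3. The proteoglycan and hyaluronan class held 6 of the 10 rises: versican (Vcan), decorin (Dcn), lumican (Lum), osteoglycin (Ogn), Prelp and the hyaluronan synthase Has2 were 1.19-fold to 1.41-fold higher. The largest change was that of thrombospondin 2 (Thbs2), which was 1.98-fold higher, and the lysyl hydroxylase Plod2, fibulin 1 (Fbln1) and matrilin 2 (Matn2) also rose. The falls were those of Tgfbi, an integrin-binding matrix protein, at 1.44-fold lower, the lysyl oxidase Loxl4 and nidogen 2 (Nid2). Many structural genes did not pass the test, among them Fn1, Eln, Lox, Bgn and the 6 laminin chains.

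A gene was called at a limma adjusted p under 0.05 (Benjamini-Hochberg over all genes), and of all genes tested 14.3% were called, 7.18% as raised and 7.16% as lowered. Of the matrix genes 27.7% were called. Bright genes are called more often, and 39 of the 47 matrix genes lay above the median signal. Of those 39 genes 12 were called (30.8%), against 25.2% of all genes above the median signal, so the count over all matrix genes lies near that background. The 3 purmorphamine arrays lay all above the 3 vehicle arrays in 19 matrix genes and all below in 8, together 57.4%, against 34.2% of all genes. This share was not computed for genes above the median signal, here or in the later counts by class, so signal level is not accounted for. The median difference, purmorphamine minus vehicle, was 0.055 over the matrix genes and -0.0084 over all genes. Without 1 array fewer matrix genes rose: leaving out vehicle replicate 1 or vehicle replicate 3 gave 6 rises, and leaving out vehicle replicate 2 or purmorphamine replicate 1 gave 5. Fewer genes of the whole table rose as well, 897 to 1168 with 1 array left out against 1593 with all 6. Among the matrix genes the fold size was small. Thbs2 alone among the 47 matrix genes both passed the test and differed by at least 1.5-fold, as did 2.37% of all genes.

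**Figure D1:**
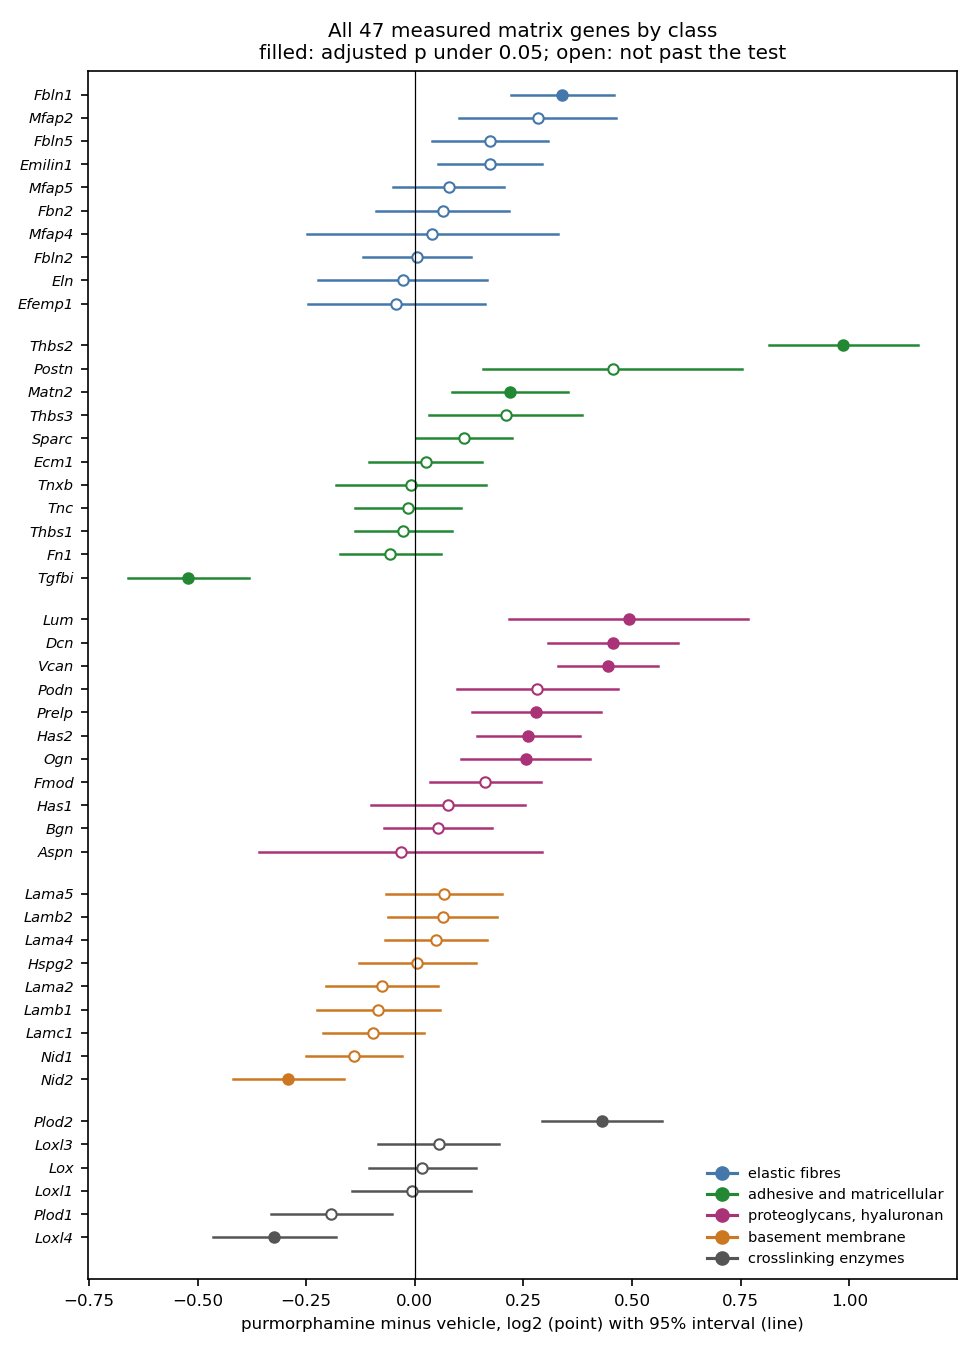
Purmorphamine minus vehicle in log2 units for the 47 measured matrix genes, grouped and coloured by class, with the 95% interval of limma as a line (n = 3 arrays per group). Filled points passed the test: 6 of them lie in the proteoglycan and hyaluronan class, and Thbs2, at 0.99, stands furthest from 0.

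Upstream sequence from RefSeq (GRCm38.p6) was found for 30 of the 47 genes, of which 7 had changed. The 250 bases before the transcript start are shown for Thbs2, the largest rise, for Tgfbi, the largest fall, and for Ogn, the only changed gene with a window that held a searched motif. The windows are chr17:14694263-14694512 on the minus strand, chr13:56609336-56609585 on the plus strand and chr13:49607765-49608014 on the plus strand, each written 5′ to 3′. Capitals mark the motif, which lies 86 bases before the transcript start of Ogn.
Thbs2: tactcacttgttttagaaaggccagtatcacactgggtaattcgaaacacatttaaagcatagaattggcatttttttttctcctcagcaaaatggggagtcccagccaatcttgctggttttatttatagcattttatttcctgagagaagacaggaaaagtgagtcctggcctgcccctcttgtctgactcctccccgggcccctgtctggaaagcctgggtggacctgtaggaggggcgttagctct
Tgfbi: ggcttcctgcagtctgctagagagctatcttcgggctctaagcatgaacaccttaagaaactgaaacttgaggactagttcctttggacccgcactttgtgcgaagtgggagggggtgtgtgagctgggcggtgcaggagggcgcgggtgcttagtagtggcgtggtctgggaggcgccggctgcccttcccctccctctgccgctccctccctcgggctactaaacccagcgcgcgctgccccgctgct
Ogn: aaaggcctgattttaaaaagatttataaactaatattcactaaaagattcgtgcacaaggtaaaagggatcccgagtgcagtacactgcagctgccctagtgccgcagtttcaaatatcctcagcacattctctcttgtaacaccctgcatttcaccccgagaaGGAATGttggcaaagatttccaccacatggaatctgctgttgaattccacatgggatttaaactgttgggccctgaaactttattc

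Motifs were searched as letters on both strands of these windows, and they do not overlap one another in letters. The Gli motif GACCACCCA was in 0 of the 30 windows of matrix genes and in 0.212% of the 16990 genes with a window. The AP-1 motif TGANTCA was in 3 of 30 (Ecm1, Tnxb and Efemp1) and in 7.44% of all. The TEAD motif GGAATG was in 3 of 30 (Nid1, Mfap2 and Ogn) and in 13.4% of all. These shares describe letters in short windows and say nothing of binding or of distant sites.

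Of the 11 proteoglycan and hyaluronan genes 6 rose and 0 fell, 54.5% of them, against 7.18% of all genes raised and 12.7% of genes above the median signal. These genes were chosen with earlier results of these data known, so the shares describe the class and are no test of it. The median difference of the class was 0.26. No member fell at an unadjusted p under 0.05 or under any alternative setting of limma that was run. Vcan, the large aggregating proteoglycan that binds hyaluronan, had 9.63, 9.65 and 9.63 on the vehicle arrays and 10.04, 10.10 and 10.11 on the purmorphamine arrays. The vehicle arrays lay within a few hundredths of a log2 unit, and the groups were far apart. The rise was 0.45 (SE 0.049, limma adjusted p = 0.0017), which is 1.36-fold.

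Dcn, a collagen-binding small leucine-rich proteoglycan that also binds TGF-beta, had vehicle values of 11.15, 10.99 and 11.12 and purmorphamine values of 11.54, 11.50 and 11.60, a rise of 0.46 (SE 0.063, adjusted p = 0.0041). Lum, a relative of Dcn that regulates collagen fibril thickness, had 6.14, 5.79 and 6.11 against 6.68, 6.40 and 6.45, a rise of 0.49 (SE 0.12, adjusted p = 0.033). Vehicle replicate 2 was the lowest array for both genes. Lum was dim, at the 38.4 percentile of mean signal over all genes, and changes of dim genes are compressed on this scale. In the RefSeq gene table of GRCm38.p6, Dcn and Lum are next to each other among protein-coding genes, followed by the related genes Kera and Epyc, which differed by 0.090 and 0.11 and did not pass.

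Prelp, which anchors basement membranes to collagen, had 11.28, 11.26 and 11.16 with vehicle and 11.51, 11.59 and 11.44 with purmorphamine, a rise of 0.28 (adjusted p = 0.027). A second, dimmer probe set of Prelp gave 0.095 (unadjusted p = 0.33), and with the mean of both Prelp did not pass, which left 5 rises in the class. Fmod, its neighbour along the chromosome, differed by 0.16 (adjusted p = 0.099), and its dimmer probe set by -0.12. The probe sets of Fmod thus differed in sign, and neither passed. Ogn, a small leucine-rich protein of the same family, had 8.98, 8.91 and 8.89 against 9.28, 9.12 and 9.15, a rise of 0.26 (adjusted p = 0.037, and 0.056 with each array centred on its median). Its near neighbours Aspn and Omd differed by -0.033 and 0.036, and Aspn was dim, at the 11.8 percentile.

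Has2, the main hyaluronan synthase of fibroblasts, had 11.57, 11.55 and 11.62 with vehicle and 11.83, 11.87 and 11.82 with purmorphamine, a rise of 0.26 (adjusted p = 0.015). The other synthase on the list, Has1, was dim and differed by 0.076 (95% interval -0.10 to 0.25). Podn differed by 0.28 (adjusted p = 0.058), with all purmorphamine arrays above all vehicle arrays. Bgn, biglycan, the closest relative of Dcn, differed by 0.053 (-0.071 to 0.18), and its second probe set by 0.035. Of 11 genes in the class, 8 had all purmorphamine arrays above all vehicle arrays, 72.7% against 17.1% of all genes. The mean difference from the vehicle mean over the class was 0.27, 0.24 and 0.23 on the 3 purmorphamine arrays and -0.028 to 0.048 on the vehicle arrays.

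Fewer proteoglycan genes rose with 1 array left out: 2 in the absence of vehicle replicate 1, vehicle replicate 2 or purmorphamine replicate 1, and 3 in the absence of vehicle replicate 3 or purmorphamine replicate 2. Vcan and Dcn rose in each of these cases. In all 6 cases Lum and Ogn were lost (adjusted p from 0.050 to 0.11), as was Prelp in 5 cases and Has2 in 3.

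**Figure D2:**
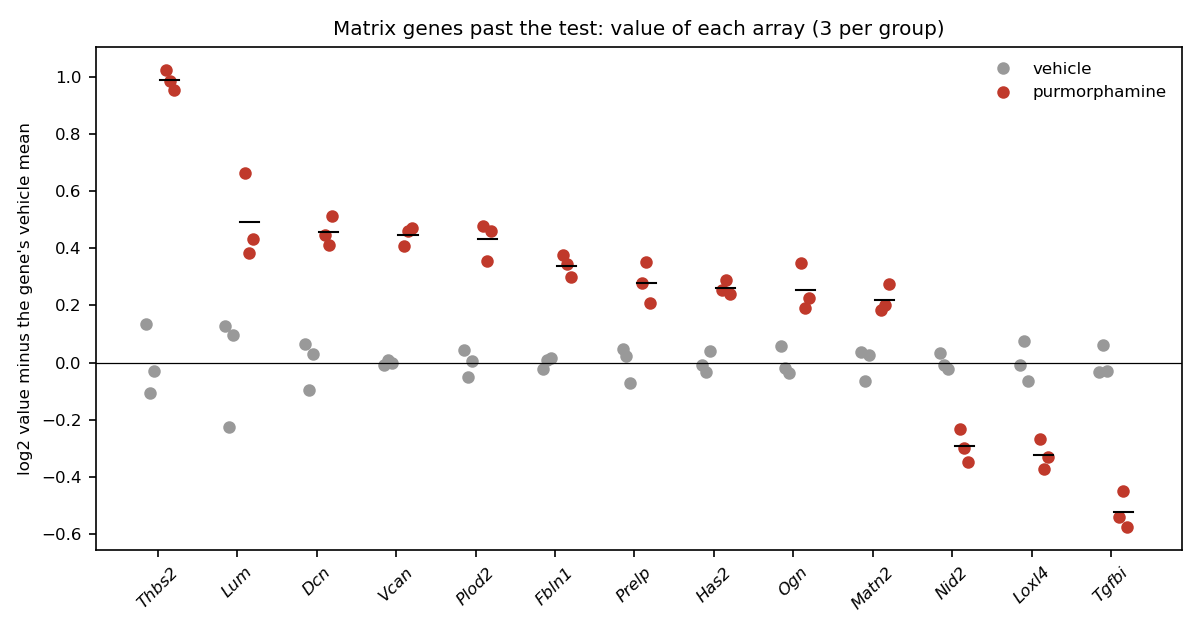
Each point is 1 array: the log2 value of a matrix gene minus that gene's vehicle mean, for the 13 genes past the test, with grey for vehicle, red for purmorphamine and a black bar for the purmorphamine mean. The groups do not overlap in any of the 13 genes, as in 34.2% of all genes. The 13 were picked by the test, so this follows largely from that choice. The red points of Lum are the most spread of the rises.

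Among 11 adhesive and matricellular genes 2 rose and 1 fell (27.3%), with a median difference of 0.025. That share is near the 25.2% called among all genes above the median signal, where 10 of the 11 lay (14.3% of all genes). Thbs2, a matricellular protein known for restraining blood vessel growth and for its part in collagen fibril assembly, had 10.37, 10.14 and 10.21 with vehicle and 11.26, 11.22 and 11.19 with purmorphamine. The gap between the groups was several times the spread within either. Thbs2 rose by 0.99 (SE 0.072, limma adjusted p = 4.13e-04, 95% interval 0.82 to 1.16). Its paralogs on the list did not pass: Thbs1 differed by -0.026 (95% interval -0.14 to 0.085) and Thbs3 by 0.21 (0.034 to 0.38, adjusted p = 0.12). The intervals of both lie below that of Thbs2. Thbs1 was very bright, at 13.95 to 13.97 with vehicle and 13.92 to 13.94 with purmorphamine.

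Tgfbi, a secreted protein induced by TGF-beta that binds integrins and collagen, had 11.27, 11.36 and 11.27 with vehicle and 10.76, 10.85 and 10.72 with purmorphamine. It fell by 0.52 (SE 0.059, limma adjusted p = 0.0019). Macrophages are also known to make Tgfbi. Beside it 6 of 15 macrophage and leukocyte markers fell and 1 rose (46.7%). Of all genes above the median signal, where all 15 lay, 25.2% were called. The markers went both ways: in 7 all purmorphamine arrays lay below all vehicle arrays and in 5 above (80%, against 34.2% of all genes). Itgam, at -1.46, had the largest difference. The part of these markers in the fall of Tgfbi was not tested. Matn2, which links matrix filaments, had 8.16, 8.06 and 8.15 against 8.30, 8.32 and 8.40, a rise of 0.22 (adjusted p = 0.044). Its call was lost in all 6 cases with an array left out (adjusted p from 0.082 to 0.13), and 1 gene of the class rose when the array left out was replicate 2 or 3 of vehicle, or replicate 1 or 3 of purmorphamine.

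Postn, periostin, had 9.78, 9.45 and 9.48 with vehicle and 10.02, 9.83 and 10.23 with purmorphamine. The difference of 0.46 was as large as that of Dcn, but the arrays of each group were further apart, and it did not pass (adjusted p = 0.057). Its 95% interval, 0.16 to 0.75, was the only one among the 34 matrix genes not past the test that reached beyond 1.5-fold in either direction. Sparc, a collagen-binding matricellular protein, differed by 0.11 (adjusted p = 0.17) with all purmorphamine arrays above all vehicle arrays. Fn1, fibronectin, the main adhesive glycoprotein of fibroblast matrix, differed by -0.057 (95% interval -0.17 to 0.059). Tnc, tenascin C, differed by -0.017, Ecm1 by 0.025 and Tnxb by -0.0089, and the groups overlapped in all 3 genes.

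Of 10 elastic fibre genes 1 rose and 0 fell (10%), near the 7.18% of all genes that rose, and 0 fell at an unadjusted p under 0.05 or in any alternative setting of limma. Fbln1, a fibulin that binds fibronectin, elastin and versican, had 8.01, 8.04 and 8.05 with vehicle and 8.41, 8.38 and 8.33 with purmorphamine. It rose by 0.34 (SE 0.050, limma adjusted p = 0.0054), and it passed with any 1 of the 6 arrays left out. In 5 genes of the class, Fbln1 among them, all purmorphamine arrays lay above all vehicle arrays (50%, against 17.1% of all genes).
The microfibril gene Mfap2 differed by 0.28 (adjusted p = 0.052), the elastin organiser Fbln5 by 0.17 (adjusted p = 0.092) and Emilin1, a glycoprotein at the edge of elastin fibres, by 0.17 (adjusted p = 0.068). These did not pass, and Mfap5 differed by 0.078. Elastin itself, Eln, had 7.39, 7.15 and 7.35 against 7.29, 7.16 and 7.35. The groups overlapped almost entirely, and the difference was -0.028 (95% interval -0.22 to 0.17). The fibrillin gene Fbn2 (0.064), Fbln2 (0.0055), Efemp1 (-0.043) and Mfap4 (0.040) also overlapped, and Mfap4 was dim, at the 29.5 percentile of mean signal.

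Basement membrane genes were the class with a median below 0, at -0.074, with 0 of 9 raised and 1 lowered. That is 11.1%, against 7.16% of all genes lowered and 12.4% of those above the median signal, where all 9 lay. None rose at an unadjusted p under 0.05 or in any alternative setting of limma. Nid2, nidogen 2, which bridges laminin and collagen IV networks, had 10.48, 10.44 and 10.43 with vehicle and 10.22, 10.15 and 10.10 with purmorphamine. It fell by 0.29 (SE 0.054, limma adjusted p = 0.013); without vehicle replicate 1 it did not pass (adjusted p = 0.051), and then 0 genes of the class fell. Its paralog Nid1 had 12.60, 12.59 and 12.57 against 12.44, 12.47 and 12.44, so the groups did not overlap. The difference of -0.14 did not pass (adjusted p = 0.10), and its second probe set gave -0.16.

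None of the 6 laminin chains passed the test. Lamc1, the gamma chain common to most laminins, differed by -0.095 with all purmorphamine arrays below all vehicle arrays (adjusted p = 0.27). Lamb1 (-0.084), Lama2 (-0.074), Lama4 (0.048), Lamb2 (0.064) and Lama5 (0.068) overlapped between the groups. Hspg2, perlecan, the large heparan sulfate proteoglycan of basement membranes, differed by 0.0054 (95% interval -0.13 to 0.14). All 9 intervals of the class lay within 1.5-fold in either direction.

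Of the 6 crosslinking enzymes, all above the median signal, 1 rose and 1 fell (33.3%, against 14.3% of all genes and 25.2% of those above the median signal). The median difference was 0.0048. Plod2, the lysyl hydroxylase that modifies collagen telopeptides and so sets the type of crosslink, had 11.32, 11.23 and 11.28 with vehicle and 11.76, 11.63 and 11.74 with purmorphamine. It rose by 0.43 (SE 0.058, limma adjusted p = 0.0038). Plod1, which hydroxylates the helical part of collagen, had values of 10.61, 10.57 and 10.62 against 10.46, 10.45 and 10.32, and its difference of -0.19 did not pass (adjusted p = 0.078). The 95% intervals of Plod2 (0.29 to 0.57) and Plod1 (-0.33 to -0.052) do not overlap. The difference between them was not tested as such.

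Lysyl oxidases start the covalent crosslinks of collagen and elastin. Loxl4 had 8.51, 8.59 and 8.45 with vehicle and 8.25, 8.15 and 8.19 with purmorphamine. It fell by 0.32 (SE 0.060, limma adjusted p = 0.013). The other members measured did not pass: Lox differed by 0.017 (95% interval -0.11 to 0.14), Loxl1 by -0.0075 and Loxl3 by 0.055, and the groups overlapped in all 3. Both Plod2 and Loxl4 passed with any 1 array left out.

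**Figure D3:**
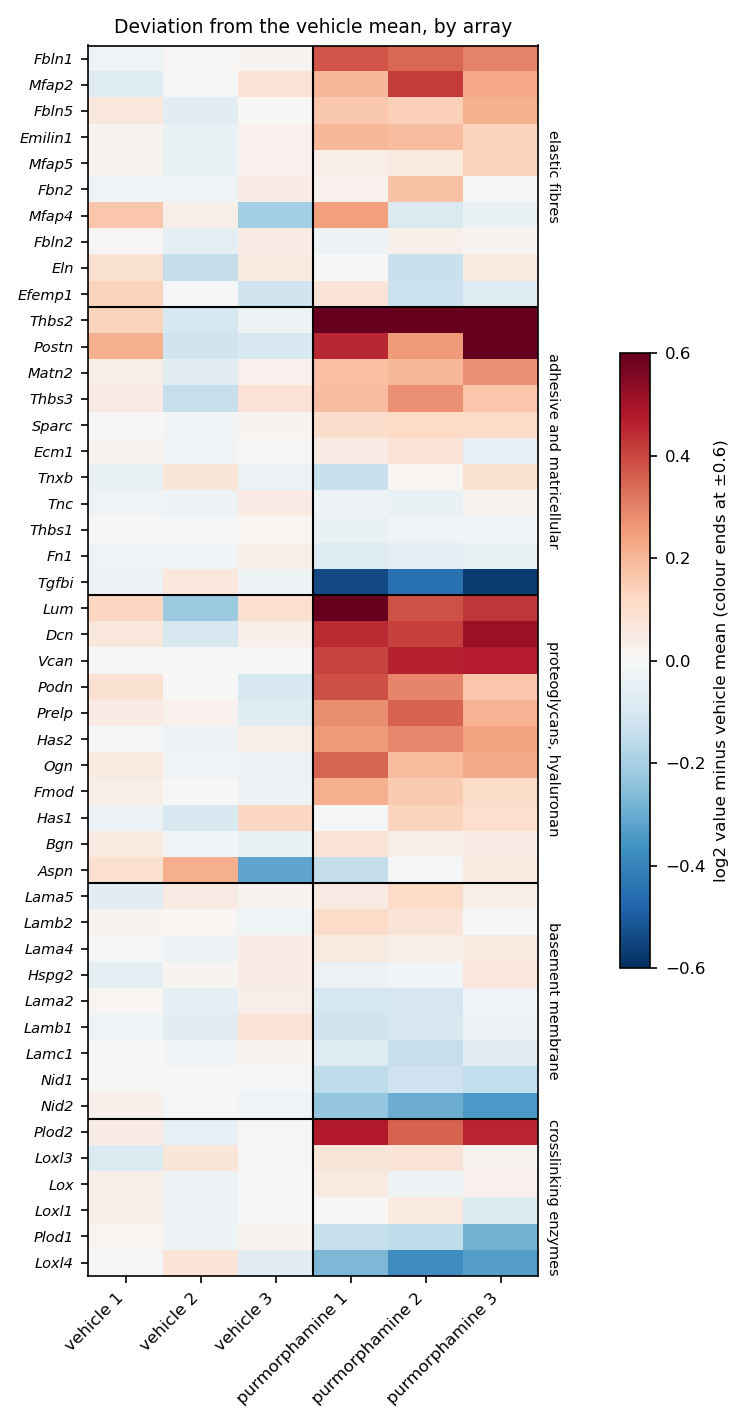
Rows are the 47 matrix genes by class and columns the 6 arrays; colour is the log2 value minus the gene's vehicle mean, red above and blue below, with the scale ending at 0.6 in each direction. The proteoglycan rows are mostly red on all 3 purmorphamine arrays, whose class means were 0.27, 0.24 and 0.23, while most basement membrane rows are pale, with class means of -0.056, -0.060 and -0.050.

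Genes that modify these products were counted in the same way. Of 17 other crosslinking and collagen hydroxylation genes, 15 of them above the median signal, 5 rose and 1 fell (35.3%, against 14.3% of all genes and 25.2% of those above the median signal), with a median of 0.11. The rises included the prolyl 4-hydroxylase subunit P4ha2 (0.56), which stabilises the collagen helix, the prolyl 3-hydroxylase P3h1 (0.45) and P3h4 (0.44), a partner of lysyl hydroxylases. Tgm2, tissue transglutaminase, which crosslinks fibronectin among others, fell by 0.53 (adjusted p = 0.0025). Enzymes of glycosaminoglycan synthesis build the sugar chains of proteoglycans. Of 30 measured, 27 of them above the median signal, 7 rose and 1 fell. That is 26.7%, near the 25.2% of genes above the median signal, with a median of 0.019. Dsel (0.34) and Glce (0.35), epimerases of dermatan and heparan sulfate, and Papss2 (0.29), which makes the sulfate donor, rose, and the heparan sulfotransferase gene Ndst2 fell by 0.43.

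Other matrix genes moved in both directions. For comparison, 14.3% of all genes were called and 25.2% of those above the median signal. Of 30 other glycoproteins 5 rose and 2 fell (23.3%), with a median of 0.068: hemicentin 1, Hmcn1 (0.68), matrix Gla protein, Mgp (0.49), and the latent TGF-beta binding protein Ltbp2 (0.29) rose, while Emilin2 fell by 0.76. Emilin2 and its paralog Emilin1, with a difference of 0.17, had intervals on opposite sides of 0, and the difference between them was not tested. Of 27 other proteoglycan and hyaluronan genes 3 rose and 3 fell (22.2%), with a median of -0.016. Cemip, which takes part in hyaluronan breakdown, rose by 0.33 and the cell surface glypican Gpc6 by 0.31. Serglycin, Srgn, the granule proteoglycan of leukocytes, fell by 0.48 and syndecan 3, Sdc3, by 0.36. Among 14 other basement membrane genes Col18a1 (0.23) rose and 0 fell (7.14%), with 1 lower at an unadjusted p under 0.05. Ntn4 (-0.20), Col4a6 (0.14) and Papln (-0.15) did not pass.

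**Figure D4:**
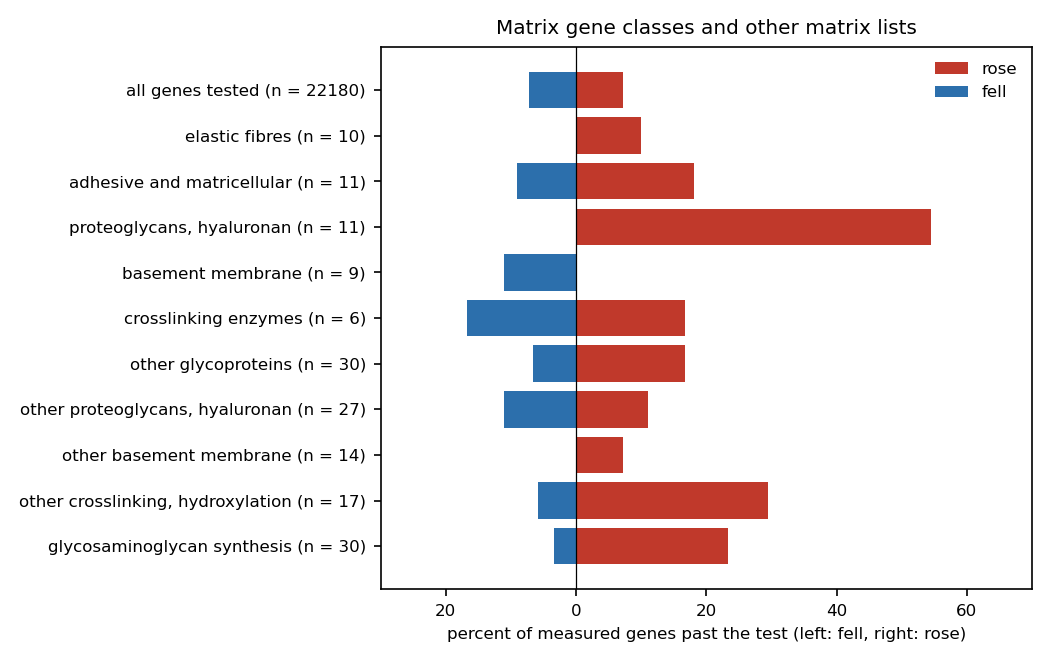
Bars give the percent of measured genes that passed the test, to the right for rises and to the left for falls, for all genes, the 5 matrix classes and 5 other matrix lists. The proteoglycan and hyaluronan class has 54.5% on the right and none on the left, where all genes have 7.18% and 7.16%. The matrix genes and lists were chosen with earlier results of these data known.

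Markers of the cell types in these cultures moved beside the matrix genes, and their part in the matrix changes was not tested. Of all genes 14.3% were called. Among genes above the median signal, where all 12 fibroblast and all 15 macrophage and leukocyte markers lay, 25.2% were called. Of 12 fibroblast markers 8 rose and 2 fell (83.3%). The PDGF receptors Pdgfra (0.83) and Pdgfrb (0.38) and the collagens Col1a2 (0.48) and Col1a1 (0.31) rose. S100a4 fell by 0.35 and Thy1 by 0.32. The 8 rises among fibroblast markers ran from 0.23 to 0.83. Of 15 macrophage and leukocyte markers 1 rose and 6 fell (46.7%), the falls including Itgam (-1.46), Coro1a (-0.71), Csf1r (-0.63) and Mrc1 (-0.62). Ptprc (0.072), Cd68 (0.13) and Lyz2 (0.051) did not pass. Of 9 smooth muscle and pericyte markers 2 rose and 5 fell (77.8%): Rgs5 (1.22) and Notch3 (0.43) rose, and Myh11 (-0.47), Cnn1 (-0.24) and Acta2 (-0.19) fell.

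Of 8 endothelial markers 4 rose and 0 fell (50%, against 14.3% of all genes): Vwf (0.50), Pecam1 (0.30), Cdh5 (0.34) and Tie1 (0.36). None was lower at an unadjusted p under 0.05. Of 9 epithelial markers Epcam (0.50) rose and 0 fell (11.1%), while Sftpc (-0.25), Sftpb (-0.10) and Cdh1 (-0.043) did not pass. Of 7 mesothelial markers 0 passed, with 1 higher and 1 lower at an unadjusted p under 0.05 (Wt1, 0.19, and Krt19, -0.17), Lrrn4 differed by 0.081 and Msln by -0.091. The mesothelial mean level was 7.90 to 7.97 on the vehicle arrays and 7.93 to 7.95 on the purmorphamine arrays. For the epithelial list it was 6.98 to 7.07 and 6.99 to 7.05, and for the smooth muscle list 9.95 to 9.97 and 9.97 to 10.01.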

How the data were processed

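RNA of 6 wells, 3 per group, was labelled from 100 ng of total RNA by in vitro transcription and hybridised to Affymetrix arrays, per the labels' protocols. Per the submitters' processing notes, oligo, RMA and limma were used, without versions. The table deposited by the authors gives log2 intensity per probe set. RMA removes background, equalises the distributions of arrays and summarises probes, which hides any shift of the whole transcriptome and compresses dim genes. The number of arrays sets the precision: the median SE was 0.0735 over all genes and 0.0569 over the matrix genes.

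Of 41345 probe sets, 23521 had 1 gene symbol in the platform annotation, 1814 several and 16010 none; only the first kind was used. The probe set with the highest mean stood for each of 22180 genes. The treatment effect was estimated with limma 3.58.1 in R 4.3.3 (lmFit, eBayes), two-sided, on all genes and with no block. No 2 arrays were identical (0 pairs). Simulated arrays of this comparison (22180 genes) gave back 90% of 2-fold and 47% of 1.41-fold changes, and 3 of 140 calls were false. Changes were planted in only a small share of genes, with independent noise, whereas 14.3% of genes were called in the data. The rates therefore check the code and need not hold for these arrays. Plots were drawn with Python 3.11.15 and matplotlib 3.10.9.

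The matrix genes, lists and motifs were chosen with earlier results of these data known. All matrix genes may be named; of other lists the 4 genes with the smallest p, the defining markers Pdgfra, Col1a1, Ptprc, Cd68, Lyz2, Acta2, Msln, Pecam1 and Epcam, and the Hedgehog targets are named. Further genes of these lists (the neighbours Kera, Epyc and Omd, and the marker Thy1) were named after their values were seen. Alternatives were other scalings, probe set rules, variance models, thresholds, arrays left out and the replicate number as a block.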

Additional observations from a re-analysis of the deposited data

How the results depend on the processing

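No matrix gene called in the main fit changed direction under any alternative. Of the 13 calls, 7 to 10 were past the test with 1 array left out, with fewer samples: Thbs2, Tgfbi, Vcan, Dcn, Fbln1, Plod2 and Loxl4 in all 6 cases. Leave-one-out ranges were 897 to 1168 genes raised and 1057 to 1206 lowered over the table, 5 to 7 matrix genes raised and 2 to 3 lowered, 1 to 2 adhesive and 2 to 4 proteoglycan genes raised, and 0 to 1 basement membrane genes lowered. Of all genes, 957 rose without vehicle replicate 2 and 1025 without vehicle replicate 3. Leaving out purmorphamine replicate 1 gave 897 rises, and leaving out purmorphamine replicate 3 gave 1008 rises and 1057 falls.

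Without both arrays numbered 3, 440 genes rose and 511 fell, and 2 matrix genes rose (Thbs2 and Vcan) and 1 fell (Tgfbi); by class, 0 elastic fibre, 1 adhesive, 1 proteoglycan and 0 crosslinking genes rose, and 0 basement membrane and 0 crosslinking genes fell. With a linear offset of 50, and with trend and robust, 16 matrix genes rose and 5 fell: 4 elastic fibre and 4 adhesive genes rose, and 2 basement membrane and 2 crosslinking genes fell. Calls also grew over the whole table, from 1593 genes raised and 1588 lowered in the main fit. With trend and robust 2416 rose and 2281 fell, and with the offset 2291 rose and 2165 fell. Without the dimmest genes (a share of 0.333) the counts were 16 and 5, with 4 elastic fibre genes raised, 2 basement membrane and 2 crosslinking genes lowered. Among all genes kept in that setting, 2250 rose and 2092 fell. At an adjusted p under 0.1, 16 matrix genes, 4 of them elastic fibre genes, rose and 2 crosslinking genes fell, while 2298 genes of the table rose and 2256 fell. Mfap2 was added by quantile normalization (2 elastic fibre genes raised), and median centring lost Matn2 and Ogn, leaving 8 matrix genes raised, 1 adhesive and 5 proteoglycan. The mean of the probe sets lost Prelp (5 proteoglycan genes raised). With a fold of at least 1.5, 214 genes rose and 311 fell, 1 matrix gene (adhesive) rose and 0 fell, and every class but the adhesive one had 0. Where a count moved, the cause was not tested beyond the number of arrays or genes left.

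The labels do not say that replicate numbers pair wells, so the numbers were not taken as pairs. Same-numbered arrays had correlations of deviations of 0.11, 0.024 and 0.10, and arrays of unlike number had -0.095 to -0.0076. Each array thus correlated best with its own number, a hint from the data and not from the design. On the second main axis of variation over all genes (13.2% of the variance) vehicle replicate 3 lay at -13.6 and purmorphamine replicate 3 at -9.56. The other arrays lay at 3.06 to 6.88 on that axis. The source of this split was not tested. With the replicate number as a block, 9 matrix genes rose and 3 fell, with 1 adhesive gene raised: Matn2 (adjusted p = 0.078) and Has2 (0.051) were lost and Podn (0.035) was gained. Signal over background limits Aspn, Mfap4, Has1 and Lum, whose differences may understate the change.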
